A study of Homo sapiens with 9 samples.

Results

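The 39 genes described here belong to the integrated stress response, the programme that cells switch on when amino acids run short, when proteins misfold or when haem or mitochondria fail. They are ATF4, 6 other stress transcription factors and 32 genes known as targets or partners of ATF4, listed by name and matched by gene identifier. The condition for entry was at least 1 CPM (the reads of a gene scaled to the size of its library) in at least 2 libraries. All 39 listed genes met it, out of 16155 genes that did so among 57820 in the tables. They fall into 7 classes: stress transcription factors, feedback and effector genes, serine and one-carbon synthesis, other amino acid metabolism, amino acid transport, tRNA synthetases with a tRNA exporter, and secreted factors with a receptor.

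In this response, kinases named EIF2AK1 to EIF2AK4 phosphorylate the translation factor eIF2, which lowers protein synthesis in general while the ATF4 message is read more, because upstream reading frames hold it back under normal conditions. ATF4 protein then pairs with C/EBP and other bZIP factors and raises genes that make, import and charge amino acids, together with genes that bring the response down again. Since ATF4 is set largely at translation, its RNA level does not report its protein, and RNA of its targets is the usual indirect readout.

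ATF4 and C/EBP pairs bind a composite element whose core reads TGATGNAA, or TTNCATCA on the other strand. This core was looked for in windows from 250 bases before to 50 bases after each gene's start (RefSeq, GRCh38.p14). Of the 33 listed genes that had such a window, 12 held it in any of their windows (36.4%). Counted by gene in the same way, 12 of 92 genes of the further lists described below held it (13.0%). Over all genes the count was by window, 1270 of 35116 (3.6%), a unit unlike the count by gene. The 7 below carried the exact form TGATGCAA or its reverse TTGCATCA. They are all the matches of that form, and come from the transcription factor, feedback, transport and tRNA synthetase classes. Each stretch is 30 bases, read 5′ to 3′ on the gene's own strand, with the 8-base core in capitals.
CEBPG: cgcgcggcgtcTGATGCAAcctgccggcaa
JDP2: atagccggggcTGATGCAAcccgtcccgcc
CHAC1: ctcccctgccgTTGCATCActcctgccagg
SLC1A5: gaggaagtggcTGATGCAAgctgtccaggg
AARS1: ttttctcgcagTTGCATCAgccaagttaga
NARS1: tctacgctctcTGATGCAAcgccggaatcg
MARS1: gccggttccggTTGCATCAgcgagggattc
The stretches lie at chr19:33374060-33374089 (CEBPG), chr14:75427995-75428024 (JDP2), chr15:40953251-40953280 (CHAC1), chr19:46784893-46784922 (SLC1A5), chr16:70289675-70289704 (AARS1), chr18:57621804-57621833 (NARS1) and chr12:57488053-57488082 (MARS1). SLC1A5, AARS1 and NARS1 are on the minus strand of the genome and the others on the plus strand. Counted from the gene start, the core began at -209 in CHAC1, -187 in AARS1, -97 in SLC1A5, -42 in CEBPG, -16 in JDP2, -4 in MARS1 and 15 in NARS1. ATF3, ASNS, SLC7A1, SLC3A2 and GARS1 held the core with another base at the open position. A match describes the letters only, and binding was not measured.

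The libraries are RNA-seq of Daoy, an established human line from a medulloblastoma of the cerebellum, made to ask what loss of the RNA helicase DDX3X does and whether tumour mutants of it replace the wild type. Controls were parental cells (control 1) and cells with empty vector (control 2), 1 library each. Knockdown populations were polyclonal and carried a doxycycline-inducible hairpin in tet-pLKO-puro, directed at the 3' UTR of DDX3X in shDDX3X 1 and 3 and at its open reading frame (ORF) in shDDX3X 2. In 4 more populations with the 3' UTR hairpin, FLAG-tagged DDX3X in pCMV10-3xFlag was added back as wild type, G302V, R534H or P568L, 1 library each, and the 3 mutants were read as a class. The stated treatment was doxycycline at 1 µg/ml for 72 h, and the labels do not say whether each control received it. Nothing says that libraries of a group came from separate cultures, so p-values measure only the spread between these libraries. From the numbers in their deposited names, control 1 and shDDX3X 1 and 2 form a series A and the other 6 libraries a series B. No label ties that series to a sequencing run, and among the controls it cannot be told apart from parental against vector.

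Libraries held 8216568 to 13030572 reads in genes, and no count in a library allowed up to 0.230 to 0.365 CPM (3 counts, counting error only). Unaligned reads were 5.2% to 5.7% in series A and 19.6% to 24.0% in series B, and their part in the results below was not tested. DDX3X, the targeted gene, was at 683.2 and 452.5 CPM in controls 1 and 2 and at 138.9 to 249.0 CPM in the knockdowns, and it fell by 1.60 on the log2 scale (SE 0.24, edgeR adjusted p = 0.0357). With constructs it was at 195.2 to 241.8 CPM, where counts do not separate added from endogenous RNA. Total DDX3X RNA with a construct did not measurably exceed the knockdown: the log2 difference was 0.24 with wild type (95% interval -0.51 to 0.99, edgeR adjusted p = 1) and 0.39 with mutants (-0.20 to 0.98, edgeR adjusted p = 0.842), and the library labelled wild type was at -1.21 against control 2. Of 7 listed markers of this tumour and line, 5 passed the filter, with a summed level of 1040 to 2710 CPM, of which VIM, a gene of many cell types, made up 988.3 to 2669 CPM. GLI2 was at 8.42 to 28.6 CPM and ZIC1 at 12.9 to 23.9 CPM. The neuronal factors ATOH1 (0.00 CPM except 0.12 with wild type) and NEUROD1 (0.00 to 0.47 CPM) did not pass. Summed markers of blood cells (0.234 to 2.09 CPM), epithelium (0.166 to 1.95) and endothelium (0.117 to 1.06) were near 0, and fibroblast markers summed to at most 54.1 CPM. In GENCODE v29, 16 of the 39 genes share exon bases with another gene, 7 of them with a protein-coding one, and ATF4, PSAT1, PSPH, MTHFD2, ASNS, SLC7A5, AARS1, GARS1, WARS1, NARS1 and XPOT have named pseudogenes, so their levels are less certain.

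**Figure D1:**
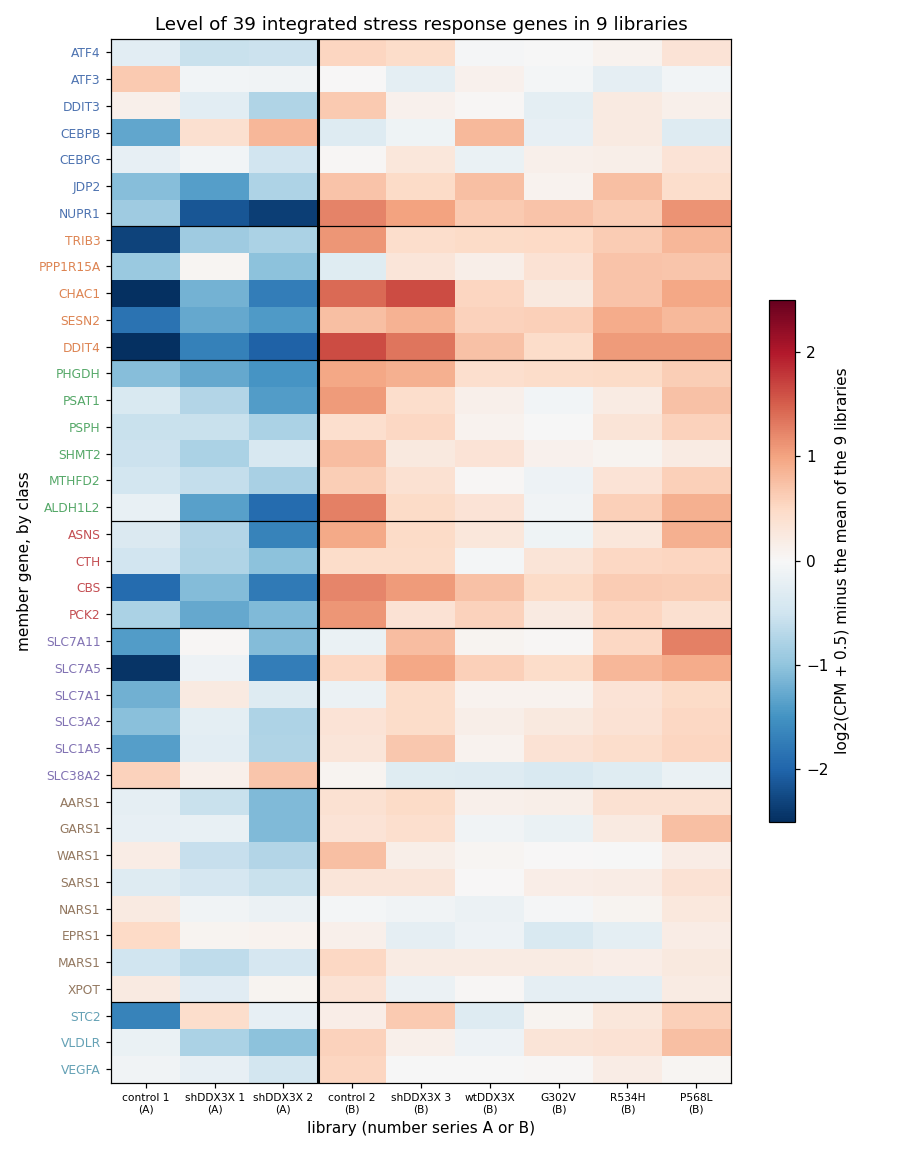
Each row is 1 of the 39 stress response genes and each column 1 of the 9 libraries; colour gives log2(CPM + 0.5) minus the gene's mean over the libraries (capped at the ends of the scale), with series A left of the heavy line and horizontal lines between classes. Most rows change from blue to red at the line between series, and CEBPB, ATF3, SLC38A2, NARS1, EPRS1 and XPOT are among those that do not.

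The widest difference among these genes lay between the number series and not between states of DDX3X. With group held constant, 25 of the 39 genes were higher in series B than in series A and none was lower (edgeR adjusted p under 0.05), where 11.3% of all genes differed, 6.56% higher and 4.69% lower. At an unadjusted p under 0.05, 32 were higher and SLC38A2 was lower (17.0% and 14.8% of all genes). In such bulk samples, fewer cells of a type and less RNA per cell cannot be told apart. The median log2 fold change of the 39 was 1.09, against 0.01 over all genes, and 35 of 39 were above 0, against 50.5%. In 26 genes every series B library lay above every series A library (11.3% of all genes), and in SLC38A2 every one lay below (12.5%). This difference is estimated from the control and knockdown libraries alone, since all constructs are in series B. DESeq2 called 30 of the 39, including the 25, and its share of all genes is not given here. With 1 library left out the count was 18 without control 1, control 2 or shDDX3X 3, 19 without R534H and 23 to 30 otherwise. CHAC1, DDIT4, SESN2, NUPR1, CBS, PHGDH, PCK2, JDP2, SLC1A5 and ATF4 passed whichever library was left out.

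The same order held in both pairs that span the series. Median log2 ratios over the 39 genes were 1.06 for control 2 over control 1 and 0.93 for shDDX3X 3 over shDDX3X 1, the pair with the same hairpin label. Both ratios were above 0 in 34 of 39 genes (34.3% of all genes) and at least 2-fold higher in 14 (3.38%), with 0 at least 2-fold lower (1.89%). By library, control 2 was the highest of the 9 in 17 genes, P568L in 10 and shDDX3X 3 in 5, while shDDX3X 2 was the lowest in 17, control 1 in 12 and shDDX3X 1 in 6. The highest and lowest library was not counted over all genes, so that these counts are not a trait of the 39.

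**Figure D2:**
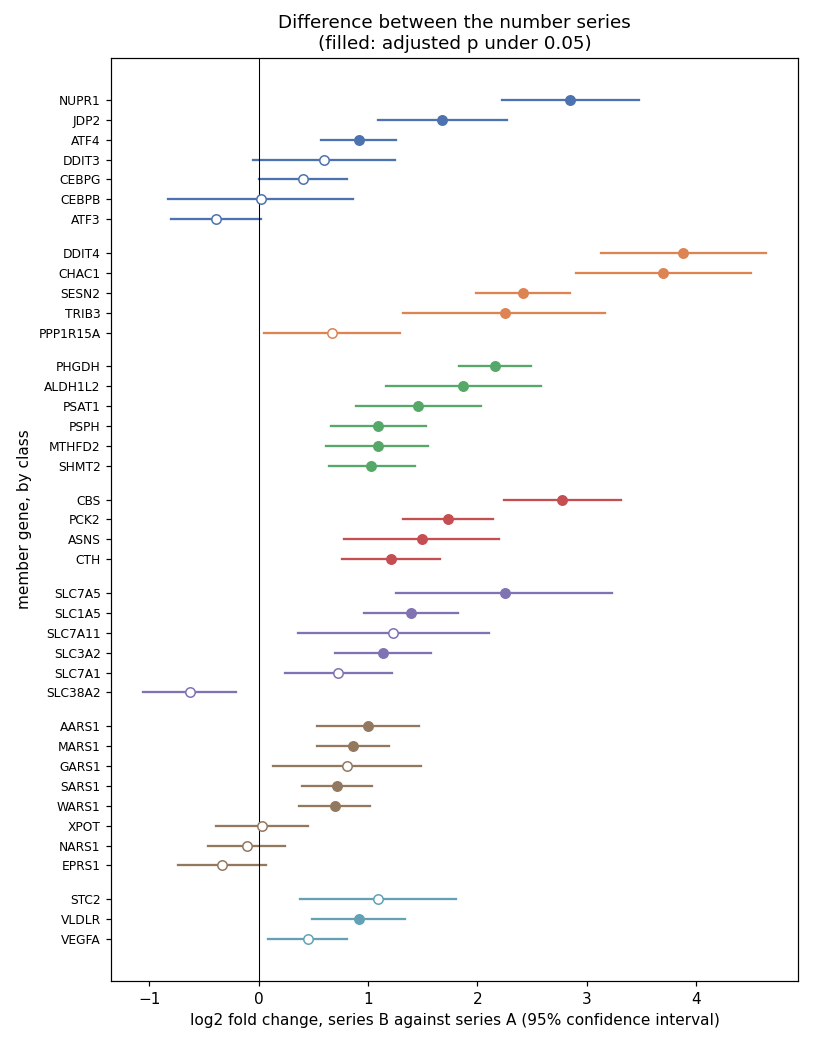
Log2 fold change of each gene in series B against series A (horizontal axis, log2 units) with its 95% confidence interval, by class; filled points passed the edgeR test at an adjusted p of 0.05. DDIT4 (3.88) and CHAC1 (3.70) lie farthest right, and SLC38A2 (-0.63), ATF3, EPRS1 and NARS1 are the 4 points left of 0.

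Among feedback and effector genes, 4 of 5 were higher in series B (class median 2.42). CHAC1, an enzyme that breaks down glutathione, was at 1.09, 3.64 and 2.35 CPM in control 1, shDDX3X 1 and shDDX3X 2. In series B it stood at 24.5 CPM in control 2, 28.6 in shDDX3X 3, 13.1 with wild type, 10.6 with G302V, 14.9 with R534H and 17.8 with P568L. Every series B value exceeded every series A value, and within series B both libraries without a construct were above the 4 with one. The log2 fold change between series was 3.70 (SE 0.36, edgeR adjusted p = 7.01e-04), a fold of 13.0, with 14 reads behind the lowest value. DDIT4, which restrains the growth kinase mTORC1, was at 1.33, 2.90 and 2.18 CPM in series A and at 33.4, 26.9, 17.6, 14.5, 22.2 and 22.2 CPM in the same order in series B (log2 3.88, SE 0.34, edgeR adjusted p = 4.05e-04). It had the same arrangement as CHAC1, including the lower levels with a construct.

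SESN2, a leucine sensor that also restrains mTORC1, was at 8.81 to 13.3 CPM in series A and 49.4 to 63.3 CPM in series B (log2 2.42, SE 0.19). TRIB3, a pseudokinase that limits ATF4 activity, was at 6.0 CPM in control 1, 17.1 and 18.2 in shDDX3X 1 and 2, 68.7 in control 2 and 43.6 in shDDX3X 3. With constructs it was at 44.6 to 57.2 CPM (series difference log2 2.25, SE 0.41, edgeR adjusted p = 0.0155). TRIB3 thus had its lowest and highest values in the controls. PPP1R15A, a regulatory subunit of the phosphatase that removes the phosphate from eIF2, did not pass (log2 0.67, edgeR adjusted p = 0.131). It was at 36.3 to 77.6 CPM in series A and 60.3 to 123.1 CPM in series B.

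All 6 genes of serine and one-carbon synthesis were higher in series B (class median 1.28). PHGDH, the first enzyme of serine synthesis, was at 150.4, 130.4 and 112.7 CPM in control 1, shDDX3X 1 and shDDX3X 2. In series B it was at 614.1 CPM in control 2, 582.7 in shDDX3X 3, 423.5 with wild type, 433.3 with G302V, 441.7 with R534H and 484.8 with P568L. The series did not overlap, the constructs again lay below the other series B libraries, and the log2 difference was 2.16 (SE 0.15, edgeR adjusted p = 7.63e-05). PSAT1, the next enzyme, was at 48.2 to 97.7 CPM in series A and 121.0 to 265.0 CPM in series B (log2 1.46), and PSPH, which releases serine, at 47.2 to 56.2 and 81.6 to 123.1 CPM (1.09). Of the mitochondrial folate enzymes, SHMT2 had a log2 difference of 1.03, MTHFD2 of 1.09 and ALDH1L2, at 3.77 to 13.6 CPM in series A and 14.7 to 37.9 CPM in series B, of 1.87.

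The 4 other genes of amino acid metabolism were all higher in series B (class median 1.61). CBS, which joins serine and homocysteine on the way to cysteine, was at 15.6, 28.4 and 17.5 CPM in control 1, shDDX3X 1 and shDDX3X 2, and at 142.0 and 126.9 CPM in control 2 and shDDX3X 3. Levels with constructs were between 84.6 and 101.5 CPM, below those 2 libraries and above all of series A (log2 2.77, SE 0.24, edgeR adjusted p = 4.05e-04). ASNS, asparagine synthetase, was at 25.5 to 63.8 CPM in series A and 75.4 to 158.5 CPM in series B (1.49). PCK2, the mitochondrial phosphoenolpyruvate carboxykinase, had a log2 difference of 1.73 and CTH, the enzyme after CBS, of 1.21.

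Of the stress transcription factors, 3 of 7 were higher in series B. ATF4 itself was at 263.2, 216.3 and 219.1 CPM in control 1, shDDX3X 1 and shDDX3X 2. In series B it was at 460.7 CPM in control 2, 434.3 in shDDX3X 3, 311.1 with wild type, 314.9 with G302V, 336.0 with R534H and 403.8 with P568L. No series A library reached a series B value, and the log2 difference was 0.92 (SE 0.15, edgeR adjusted p = 0.0117). NUPR1, a small stress-induced nuclear protein, went from 3.85 to 11.4 CPM in series A to 34.0 to 51.5 CPM in series B (log2 2.85, SE 0.28), and JDP2, a bZIP repressor with the core in its window, from 7.28 to 11.4 to 21.0 to 33.9 CPM (1.68).

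The other 4 factors did not pass between series. ATF3, an early stress factor, was at 53.6 CPM in control 1 and 28.4 to 36.4 CPM in the other 8 libraries (log2 -0.39). DDIT3, also called CHOP, was low throughout, at 3.94 to 11.2 CPM (0.60). Its exons overlap those of MARS1 on the opposite strand, and the library kit did not mark strand, so reads shared by both cannot be assigned. CEBPG, the C/EBP partner shown above with the core, had a difference of 0.41, and CEBPB of 0.02.

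Of 6 transporters, 3 were higher in series B (class median 1.19). SLC7A5, the large neutral amino acid exchanger, was at 30.0 CPM in control 1, 152.2 and 49.5 in shDDX3X 1 and 2 and 228.1 to 322.8 in series B (log2 2.25, SE 0.44). Its partner chain SLC3A2 had a difference of 1.14 and the glutamine transporter SLC1A5 one of 1.39. The cystine transporter SLC7A11 (1.23, edgeR adjusted p = 0.0665) and the cationic amino acid transporter SLC7A1 (0.73, edgeR adjusted p = 0.0573) did not pass. SLC38A2, a neutral amino acid carrier, was the exception in direction, with 702.7 to 1041 CPM in series A and 498.1 to 674.2 CPM in series B (-0.63, edgeR adjusted p = 0.0576).

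Aminoacyl-tRNA synthetases split. AARS1 (log2 1.00, alanine), MARS1 (0.86, methionine), SARS1 (0.72, serine) and WARS1 (0.70, tryptophan) were higher in series B. GARS1 (glycine) did not pass at 0.81 (edgeR adjusted p = 0.102), and values near or below 0 belonged to EPRS1 (-0.33, glutamate and proline), NARS1 (-0.11, asparagine) and the tRNA exporter XPOT (0.03). AARS1 and MARS1, which passed, and NARS1, which did not, all carried the exact form of the core shown above. Over all classes, 7 of 12 genes with the core passed between series and 14 of 21 without it, with medians of 0.93 and 1.09. Among the last class, the lipoprotein receptor VLDLR was higher in series B (0.92), while the secreted proteins STC2 (1.09, edgeR adjusted p = 0.0531) and VEGFA (0.45, edgeR adjusted p = 0.0891) did not pass.

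**Figure D3:**
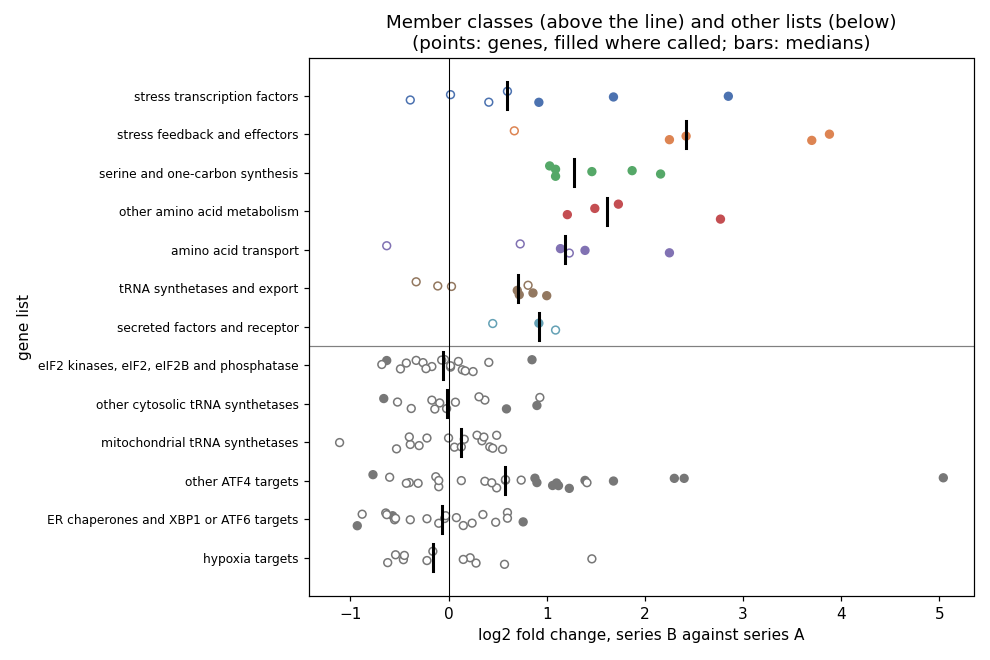
Log2 fold change in series B against series A for the 7 classes (above the grey line) and 6 further lists of the pathway and its neighbours (below it); points are genes, filled where the edgeR adjusted p was under 0.05, and bars are list medians. Class medians run from 0.60 to 2.42, and of the further lists the other ATF4 targets have the highest median, 0.58.

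Further genes of the pathway were read from 6 lists chosen beside the 39. Of 30 other ATF4 targets, 27 passed the filter, 11 were higher in series B (6.56% of all genes) and 1 was lower (4.69%), with a median of 0.58. GDF15, a secreted stress hormone, was at 0.17 to 1.32 CPM in series A and 17.6 to 38.7 CPM in series B (log2 5.04, SE 0.58, edgeR adjusted p = 0.00164). Its lowest series A value lay below the 0.238 to 0.246 CPM that no count allows there, so the size of this difference is uncertain. The glycine transporter SLC6A9 (2.30), the proline enzyme PYCR1 (1.68), the mitochondrial protease LONP1 (1.39), the translation repressor EIF4EBP1 (1.23), the transporters SLC7A3 (2.40) and SLC1A4 (1.12), GPT2 (1.10), SQSTM1 (1.06), CARS1 (0.90) and HMOX1 (0.88) were also higher. The ER oxidase ERO1A was lower (-0.77). SLC7A3 rested on few reads, 64 in control 2 and 3 to 9 in the other libraries.

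Upstream of ATF4, values lay around 0. The 18 genes of the eIF2 kinases, eIF2, its exchange factor eIF2B and related regulators had a median of -0.05, with the mitochondrial stress relay DELE1 higher (0.85) and the eIF2 subunit EIF2S1 lower (-0.63). Kinase activity was not measured. Of 20 ER chaperones and targets of XBP1 or ATF6 (median -0.07), SYVN1 was higher (0.76) and HSP90B1 (-0.93) and PDIA6 (-0.57) were lower. Median values were -0.16 for 11 hypoxia targets and 0.13 for 17 mitochondrial tRNA synthetases, with 0 called in either by edgeR. At an unadjusted p under 0.05 there were 4 and 3 (31.8% of all genes). The 13 remaining cytosolic synthetases had a median of -0.02, with CARS1 and YARS1 (0.59) higher.

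Part of these values moved with GC content. When a trend with transcript GC content was removed from each library, 19 genes passed, 18 higher and CEBPB lower, 17 of them among the 25. ATF4 then had a log2 difference of 0.52 (edgeR adjusted p = 0.167), SLC1A5 of 0.73 and SHMT2 of 0.62, while DDIT4 (3.41), CHAC1 (3.03), PHGDH (1.99) and CBS (2.31) passed. With control and knockdown libraries alone, 5 passed (CHAC1, SESN2, DDIT4, PHGDH and CBS), at log2 values of 2.17 to 3.91.

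Knockdown against control, with series as a term, asks what loss of DDX3X does to these genes. No member passed (0 of 39 by edgeR, where 0.675% of all genes did). At an unadjusted p under 0.05 there were 14 (22.0% of all genes), 6 higher (13.0%) and 8 lower (9.04%). DESeq2 called 6: CEBPB, SLC7A1, SLC1A5 and STC2 higher and ALDH1L2 and WARS1 lower. Its share of all genes is not given here, so that this count is not a result about these genes. The median log2 fold change was -0.19, against -0.01 over all genes. All 3 knockdowns lay above the control of their own series in 9 genes (23.8%) and below it in 16 (25.6%).

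**Figure D4:**
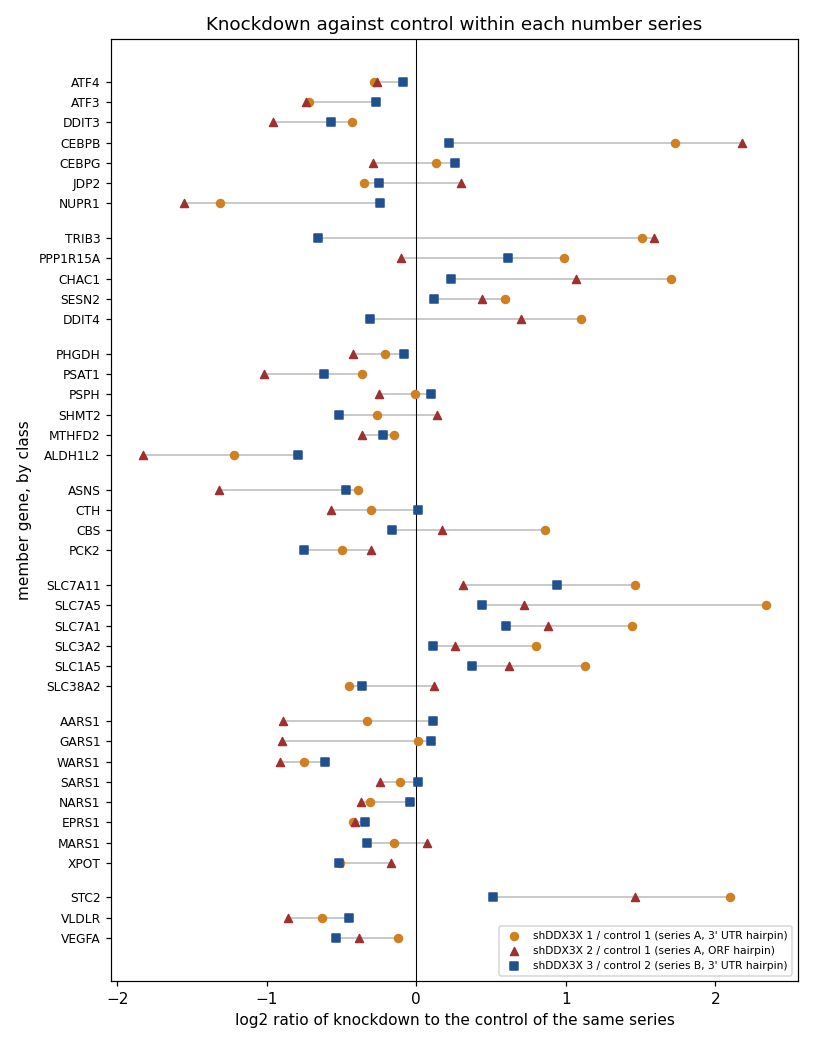
Log2 ratio of each knockdown library to the control of its own series (horizontal axis, log2 units) for the 39 genes by class; circles and triangles are the 3' UTR and ORF hairpins over control 1, squares the 3' UTR hairpin over control 2. Transport genes other than SLC38A2 lie right of 0 in all 3 ratios, and TRIB3 lies at 1.51 and 1.59 in series A but at -0.66 in series B.

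By class, the values after knockdown did not go one way. For amino acid transport the class median was 0.80 with 5 of 6 above 0, and for feedback and effector genes it was 0.48 with 5 of 5 above 0. Serine and one-carbon synthesis had -0.25 with 0 of 6 above 0, tRNA synthetases and export -0.25 with 0 of 8 above 0, and other amino acid metabolism -0.40 with 1 of 4. Over all genes tested 49.2% were above 0. These counts describe the lists and carry no test, and several medians depended on the fit. With the GC trend removed the transport median was 0.40 and that of feedback genes 0.00, and without the series term they were 0.35 and -0.17.

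Of the transporters, SLC7A1 was nearest to the threshold. It was at 119.6 and 249.3 CPM in controls 1 and 2 and at 324.3, 220.3 and 378.4 CPM in shDDX3X 1, 2 and 3 (184 ± 91.7 CPM, SD, n = 2, and 308 ± 80.3 CPM, SD, n = 3). Both SDs include the difference between series. The groups overlapped, since shDDX3X 2 lay under control 2, but each knockdown exceeded the control of its series (log2 0.93, SE 0.23, edgeR adjusted p = 0.0704). SLC7A5 (1.15, SE 0.46), SLC7A11 (0.98, SE 0.41) and SLC1A5 (0.67, SE 0.20) had edgeR adjusted p from 0.108 to 0.204. With the GC trend removed, SLC1A5 was at 0.14 and SLC7A5 at 0.66.

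STC2, a secreted glycoprotein, was at 51.5 and 182.9 CPM in the controls and 221.7, 141.5 and 259.7 CPM in the knockdowns (log2 1.23, SE 0.33, edgeR adjusted p = 0.0895). CEBPB, a partner of ATF4, was at 13.9 and 28.0 CPM in the controls and 46.3, 63.1 and 32.6 CPM in the knockdowns, the one member whose knockdown values all exceeded both controls (10.1% of all genes did). Its log2 fold change was 1.19 (SE 0.39, edgeR adjusted p = 0.128), 1.98 within series A and 0.22 within series B, and 0.34 with the GC trend removed.

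Of the genes with lower values after knockdown, WARS1 came nearest to the threshold. It was at 477.2 and 708.0 CPM in the controls and 283.0, 254.0 and 465.2 CPM in the knockdowns, so that no knockdown reached either control (log2 -0.73, SE 0.15, edgeR adjusted p = 0.0533). It passed in 7 of 20 alternatives and did not in 13. Those that passed include DESeq2 (adjusted p = 0.00294), the GC trend removed (edgeR adjusted p = 0.0329), library size as the one scaling, and no filter. The others were series A alone and the fits without control 2 or shDDX3X 3. All of these compare shDDX3X 1 and 2 with control 1, so they are not separate support. ATF3, DDIT3, EPRS1, NARS1 and XPOT also had all knockdowns below both controls, 6 members in all (10.8% of all genes), at log2 values of -0.21 to -0.63. ALDH1L2 was at 13.6 and 37.9 CPM in the controls and 5.79, 3.77 and 21.9 CPM in the knockdowns (-1.18, SE 0.32, edgeR adjusted p = 0.0895). Below each series' own control in every knockdown, yet not passing, were also PSAT1 (-0.64), ASNS (-0.65), PCK2 (-0.55), NUPR1 (-0.88), VLDLR (-0.62), VEGFA (-0.37), PHGDH (-0.21), MTHFD2 (-0.24) and ATF4.

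ATF4 RNA was at 362 ± 140 CPM in the controls (SD, n = 2) and 290 ± 125 CPM in the knockdowns (SD, n = 3), where both SDs include the difference between series. Against the control of the same series its log2 ratios were -0.28, -0.26 and -0.09 in shDDX3X 1, 2 and 3, and the fitted log2 fold change was -0.19 (95% interval -0.54 to 0.15, edgeR adjusted p = 0.508). Further members with a value near 0 were PSPH (-0.03, interval -0.47 to 0.42), CEBPG (0.07, -0.34 to 0.48) and SARS1 (-0.10, -0.42 to 0.23). These intervals leave room for differences that 5 libraries could not resolve. Single libraries decided the count of calls, which was 9 without control 2 and 9 without shDDX3X 3, where in both cases the comparison comes from series A only, and 0 without any other single library. The 9 were CEBPB, TRIB3, SLC7A1, SLC1A5 and STC2, higher, and ATF3, NUPR1, ALDH1L2 and WARS1, lower.

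The knockdown effect of TRIB3 differed between the 2 series: the log2 knockdown effect in series B minus that in series A was -2.21 (SE 0.38, edgeR adjusted p = 0.00861). It was the one member that passed this test (3.19% of all genes did). The value was -1.42 (edgeR adjusted p = 0.239) with the GC trend removed. Since control 1 is parental and control 2 vector, the kind of control and the series cannot be told apart here. CEBPB (-1.76, edgeR adjusted p = 0.0652), STC2 (-1.31) and NUPR1 (1.20) had an unadjusted p under 0.05. By sign alone, CBS, DDIT4 and TRIB3 were above the control in both series A knockdowns and below it in series B, and AARS1, CTH, PSPH and SARS1 the other way round, with ratios as small as 0.01 in CTH and SARS1. Neither count of 39 exceeded the share over all genes (14.2% and 15.0%).

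Among the further lists, knockdown gave 0 calls by edgeR, and the genes with the smallest p were these. SQSTM1 (0.98, edgeR adjusted p = 0.0511) and TNFRSF10B (0.72) led the other ATF4 targets, and SDF2L1 (1.37) and MANF (0.62) the ER chaperones. Of the 20 ER chaperones 7 had an unadjusted p under 0.05, all higher, where 13.0% of all genes were higher and 9.04% lower. EGLN3 (-1.27, edgeR adjusted p = 0.0598) and SLC2A1 (0.89) led the hypoxia targets, EIF2AK2 (-0.42) and OMA1 (-0.62) the eIF2 list, and CARS2 (0.59) and RARS2 (-0.48) the mitochondrial synthetases. Of the cytosolic synthetases, FARSA had a value of 0.70.

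The ORF hairpin of shDDX3X 2 was set against the 3' UTR hairpin of shDDX3X 1 and 3. No member passed by edgeR (0 of 39, and 0% of all genes; DESeq2 0 of 39). At an unadjusted p under 0.05 there were 5 (9.11% of all genes), with PPP1R15A (-1.01), GARS1 (-0.93) and AARS1 (-0.67) lower (4.53%) and SLC38A2 (0.55) and SHMT2 (0.46) higher (4.58%) with the ORF hairpin. Of 39 values 31 were below 0 and 8 above (50.3% of all genes), with a median of -0.27 against 0.00 over all genes. PPP1R15A was at 36.3 CPM with the ORF hairpin and at 77.6 and 92.3 CPM with the other. DDX3X was lowest with the ORF hairpin (138.9 CPM), and the part of that in the difference was not tested. Leaving out 1 control or knockdown library brought 1 or 2 calls, SLC7A5 without control 1, control 2 or shDDX3X 3 and CEBPB and TRIB3 without shDDX3X 1.

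Cells given wild type DDX3X, in which total DDX3X RNA did not measurably exceed the knockdown, were set against the knockdowns. No gene at all passed (0% of all genes, DESeq2 0 members), and 31 of 39 values were below 0 and 8 above (48.2% of all genes), with a median of -0.24 against -0.02. CHAC1 (-1.41, SE 0.50), STC2 (-1.39, SE 0.46) and SLC1A5 (-0.74, SE 0.28) had an unadjusted p under 0.05 (2.92% of all genes, 1.15% lower and 1.77% higher, where no member was), each with an edgeR adjusted p = 1. Within series B, the ratio of wild type to shDDX3X 3 was -1.13 for CHAC1, -0.98 for STC2, -0.58 for SLC1A5 and -0.48 for ATF4. All 6 transporters and all 5 feedback and effector genes had fitted values below 0, which for TRIB3 came from the series A knockdowns, since its ratio to shDDX3X 3 was 0.03. Without shDDX3X 3, all knockdowns lie in series A and the wild type library in series B. The series term of that fit comes from control 2 against control 1 alone, which is also vector against parental. Its calls are therefore not read here. With 1 wild type library the intervals of the main fit are wide, at -2.52 to -0.30 for CHAC1, and they assume that it varies as other libraries do.

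The mutants against knockdown gave a similar result, again with 0 members called by edgeR and 0 by DESeq2 (0% of all genes by edgeR). CHAC1 (-1.26, SE 0.37, edgeR adjusted p = 0.831) and CBS (-0.69, SE 0.26, edgeR adjusted p = 0.831) had an unadjusted p under 0.05 (5.53% of all genes, 3.08% lower and 2.46% higher, where no member was). The median was -0.08 against 0.01, with 14 of 39 above 0 (50.7%). Median ratios to shDDX3X 3 were -0.28 for G302V, -0.11 for R534H and 0.05 for P568L, and -0.29 for wild type. Pooled values against knockdown depend on the series term, because 2 of the 3 knockdown libraries lie in series A. Without it CHAC1 was at 0.20 with wild type and 0.35 with mutants, and CBS at 0.66 with mutants, the opposite sign. Without shDDX3X 3, CEBPB, TRIB3 and STC2 passed, but all knockdowns then lie in series A and all mutants in series B. The series term of that fit comes from control 2 against control 1 alone, so it cannot be told apart from vector against parental. Its share of all genes is not given here.

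Against control, the mutants also had 0 of 39 members called by edgeR (0.0186% of all genes), with 10 at an unadjusted p under 0.05 (11.9%) and 1, WARS1, by DESeq2. Of these 8 were lower (5.73%) and 2 higher (6.18%), and 12 of 39 values were above 0 (52.6%). WARS1 was at 440 ± 32.5 CPM with mutants (SD, n = 3) and at 593 ± 163 CPM in the controls (SD, n = 2; log2 -0.75, SE 0.16, edgeR adjusted p = 0.157). The control SD includes the difference between series, and the mutant SD spans 3 different mutants, all in series B. The log2 value has series as a term, so it is not the ratio of these means. Also lower at an unadjusted p under 0.05 were ALDH1L2 (-0.94), PSAT1 (-0.74), NUPR1 (-0.74), PCK2 (-0.63), SHMT2 (-0.51), PHGDH (-0.51) and ATF4 (-0.44). PPP1R15A, at 96.8, 123.1 and 122.0 CPM with G302V, R534H and P568L against 39.0 and 60.3 CPM in the controls, was higher (0.90, SE 0.32, edgeR adjusted p = 0.328), as was SLC7A1 (0.61). Every mutant value of PPP1R15A exceeded both controls, but so did the wild type (82.5 CPM), shDDX3X 1 and shDDX3X 3. For mutants against knockdown its log2 value was 0.32 (edgeR adjusted p = 0.871). The share of all genes with every mutant above both controls is not given here. Calls changed in series B alone and without control 2. Each of those fits has 1 control library, and without control 2 the series term comes from the knockdowns alone.

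**Figure D5:**
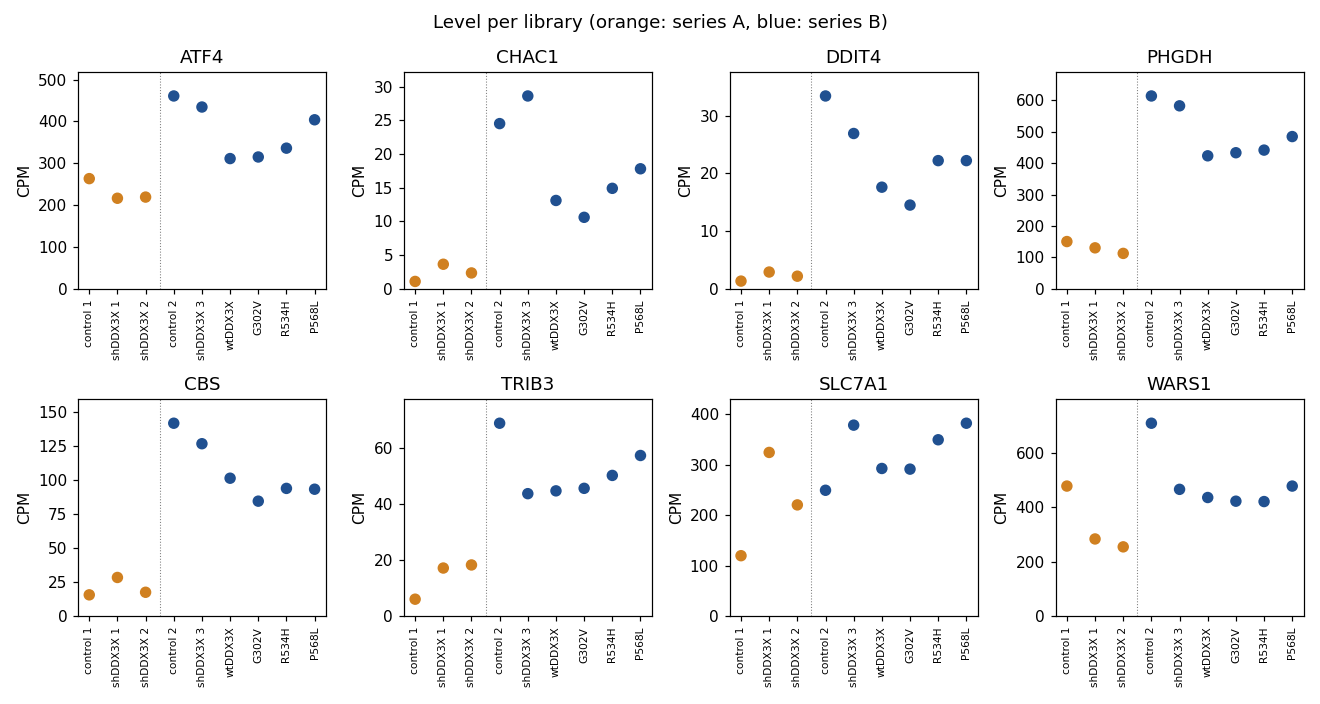
CPM of ATF4, CHAC1, DDIT4, PHGDH, CBS, TRIB3, SLC7A1 and WARS1 in each of the 9 libraries, orange for series A and blue for series B, on linear axes from 0. In the 5 panels ATF4, CHAC1, DDIT4, PHGDH and CBS the 4 libraries with a construct lie below control 2 and shDDX3X 3 and above series A.

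A comparison within series B, chosen after the values were seen, set the 4 libraries with a construct against control 2 and shDDX3X 3. It gave 0 of 39 members called by edgeR and 0 by DESeq2 (0.00640% of 15626 genes by edgeR). At an unadjusted p under 0.05 there were 8 (5.75%): CHAC1 (-0.91, SE 0.21, edgeR adjusted p = 0.442), DDIT4 (-0.66), CBS (-0.53), PHGDH (-0.43), WARS1 (-0.43), ATF4 (-0.40) and SHMT2 (-0.35) were lower with a construct and PPP1R15A (0.47) higher. Of 39 values 33 were below 0 and 6 above (50.4% of the 15626 genes were above), with a median of -0.18 against 0.00. In ATF4, CBS, CHAC1, DDIT4 and PHGDH the libraries did not overlap (6.34% of all genes lower, 6.84% higher, where no member was). WARS1 passed without shDDX3X 3. ATF4 had a log2 ratio of -0.09 between shDDX3X 3 and control 2 and of -0.57 to -0.19 between the lines with a construct and control 2.

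The mutants against the wild type had 0 members called by edgeR (0% of all genes) and 0 by DESeq2. VLDLR, at 63.0, 64.7 and 84.8 CPM with G302V, R534H and P568L and 46.4 CPM with wild type, had an unadjusted p under 0.05 (log2 0.61, SE 0.25, edgeR adjusted p = 1), where 1.95% of all genes did, 0.545% higher and 1.41% lower. Of 39 values 31 were above 0 (51.7% of all genes), with a median of 0.18 against 0.01. All 3 mutants lay above the wild type in 15 genes (24.0% of all genes) and below it in 6 (25.0%). CEBPB was at 62.2 CPM with wild type and 27.8 to 41.1 CPM with mutants (-0.91, 95% interval -1.84 to 0.02). Among synthetic genes, ASNS was at 151.6 CPM with P568L and at 75.4 and 99.6 CPM with G302V and R534H, and GARS1 at 765.9 against 402.9 and 533.6 CPM. With 1 library a mutant, differences between mutants could not be tested.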

How the data were processed

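The authors deposited 1 table of raw gene counts per library. Tools listed, without versions or roles, per the submitters' processing notes, are HISAT2, HTSeq, bcl2fastq and DESeq2, with GRCh37 and hg19 as builds. Each table's 5 summary lines, 20.3% to 35.8% of its reads, were left out. Gene identifiers were matched to symbols for 51996 of 57820 genes (89.9%). CPM values are scaled by edgeR's TMM factors.

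The 16155 genes that reached 1 CPM in 2 or more libraries were tested with edgeR 4.0.16 (robust quasi-likelihood test, limma 3.58.1, R 4.3.3) with group and number series as terms, leaving 4 residual degrees of freedom. Tests are two-sided, and p-values were adjusted by Benjamini-Hochberg over all genes tested at 0.05. DESeq2 1.42.0 was an alternative, with other scalings, filters, GC correction (local regression, span 0.5) and left-out libraries. Same-numbered control and knockdown libraries deviated together in 1 pair (r = 0.35) and not in the other (r = -0.27). With 2 controls, r for control 2 is always minus r for control 1, so these values cannot decide whether libraries were paired. In the main fits the numbers were used only as names.

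The genes and lists were chosen with earlier results of these data known. Comparisons of the series, of constructs within series B and of knockdown between series were added after seeing the data. Every listed gene that passed the filter is named, and of the further lists those past the threshold or otherwise the 2 with the smallest p after knockdown, except 1 gene that is not reported here.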

Additional observations from a re-analysis of the deposited data

Results flagged for a closer look

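For 3 genes the knockdown effect differed between the number series by a test of the difference itself (edgeR quasi-likelihood test, group by series cells), which 3.19% of all genes also passed, so that the number of genes is not a result about them. For TRIB3, the pseudokinase that limits ATF4, series B minus series A was -2.21 (SE 0.38, edgeR adjusted p = 0.00861), from log2 ratios of 1.51 and 1.59 in series A and -0.66 in series B. With the GC trend removed it was -1.42 (edgeR adjusted p = 0.239), and none of the 39 genes passed. For PYCR1, an enzyme of proline synthesis, it was -1.79 (SE 0.37, edgeR adjusted p = 0.0206), from ratios of 1.34 and 1.67 in series A and -0.28 in series B. For FARSA, a subunit of the phenylalanine tRNA synthetase, it was -1.41 (SE 0.29, edgeR adjusted p = 0.0211), from ratios of 1.32 and 1.34 in series A and -0.08 in series B. In all 3 genes control 1 was the lowest of the 9 libraries and control 2 the highest: PYCR1 was at 14.3 and 92.0 CPM there and at 36.2 to 76.0 CPM in the others, and FARSA at 70.0 and 230.7 CPM and at 174.4 to 218.6 CPM. Parental against vector and series A against series B cannot be told apart in these values.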

How the results depend on the processing

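Each count of listed genes past the threshold was recomputed under other settings. Shares of all genes under these settings are not given here. The counts therefore show only how calls moved with the setting, and are not results about these genes. For knockdown against control (0 by edgeR) it was 6 with DESeq2, 1 with library size as the one scaling, 11 without the filter, 2 with the GC trend removed (PCK2 and WARS1) and 5 in series A alone. Leaving out 1 library gave 0 to 9. Without the filter it was 1 for wild type against knockdown, 1 for mutants against knockdown, 4 for mutants against control, 2 for the hairpins, 1 for constructs within series B and 3 for the knockdown effect between series. Mutants against control gave 1 with DESeq2, 2 with only the groups compared and 2 in series B alone. The knockdown effect between series gave 2 with DESeq2, 0 with the GC trend removed and 0 with only the groups compared. Leaving out 1 library gave 0 to 2 for wild type against knockdown (2 without shDDX3X 3), 0 to 3 for mutants against knockdown (3 without shDDX3X 3), 0 to 3 for mutants against control (3 without control 2), 0 to 2 for the hairpins (2 without shDDX3X 1), 0 to 1 for constructs (1 without shDDX3X 3) and 1 to 3 for the knockdown effect between series (3 without shDDX3X 2). The series difference, 25 genes, gave 5 with control and knockdown libraries alone and 18 to 30 with 1 library left out. In the last range, 18 came without control 1, control 2 or shDDX3X 3 and 30 without shDDX3X 1. Mutants against wild type gave 0 under every alternative that could be fitted.

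Directions turned where the series term was left out: wild type against knockdown was then 0.20 for CHAC1 and 0.08 for SLC1A5, mutants against knockdown 0.35 for CHAC1 and 0.66 for CBS, mutants against control 0.33 for NUPR1 and 0.25 for PHGDH, and the ORF hairpin -0.22 for SHMT2. The replicate block, which pairs libraries by number alone and takes the place of the series term, gave 0 calls for knockdown against control, 2 for mutants against knockdown and 17 for the hairpins. It also turned CHAC1 (2.80) and SLC1A5 (0.80) in wild type against knockdown, CHAC1 (2.95) and CBS (2.37) in mutants against knockdown, ATF4 (0.21), NUPR1 (1.15), PHGDH (0.93), PSAT1 (0.10), SHMT2 (0.42), ALDH1L2 (0.19) and PCK2 (0.72) in mutants against control, and SHMT2 (-0.91) in the hairpins. Members' medians turned likewise without the series term, to 0.28 for wild type against knockdown, 0.48 for mutants against knockdown and 0.21 for mutants against control. Of all values of single genes under the alternatives, 1028 kept their direction and their side of the threshold, 63 lost the call, 59 gained one and 19 turned. The cause of these changes was not tested. No scaling moved the median of all genes by more than 0.08 on the log2 scale. A comparison of the hairpins in 1 series or among knockdowns alone, and the knockdown effect between series without control 1, control 2 or shDDX3X 3, could not be fitted. With 1 to 3 libraries a group, differences within the intervals given were not detectable.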
